A study of Mus musculus with 7 samples.

Results

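Among the receptors and ligands with which the retinal pigment epithelium (RPE) binds and engulfs shed photoreceptor outer segments, none passed the test for a difference between Mfrp rd6 and wild-type mice. Their changes lay between -0.26 and 0.34 on the log2 scale and were in the median larger in size than those of all genes. The set holds 10 genes chosen by name for their role in phagocytosis, out of 19938 genes measured: the TAM receptors Mertk, Axl and Tyro3, their ligands Gas6 and Pros1, the integrin chains Itgav and Itgb5 with the bridging protein Mfge8, the scavenger receptor Cd36, and Tub. Each of the 10 was represented by 1 probe set annotated to that gene alone. RNA was measured on whole-transcript arrays in 7 samples, 3 from mice carrying the Mfrp rd6 allele and 4 from WT mice, all labelled C57Bl/6J and all described as RPE shaken loose from the eyecup and pelleted. Mfrp encodes a membrane protein made by the RPE, and the recessive rd6 allele leads to slow loss of photoreceptors. On age the labels disagree: by their age field every Mfrp rd6 sample was 12 weeks old and every wild-type sample 8 weeks, and age then cannot be told apart from genotype, but by the protocol for animal growth Mfrp rd6 replicate 1 alone was 12 weeks old and all others were 8. Separate mice or litters for the replicates are not named in the labels, and the p-values rest on a sample-to-sample spread that may be technical in origin. The time of day of collection is not given in the sources used here.

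Each day the RPE removes the tips that rods and cones shed. The integrin αvβ5, made of the chains that Itgav and Itgb5 encode, binds the tips through Mfge8, a secreted protein that attaches to phosphatidylserine on their surface. Gas6 and protein S (Pros1) attach to the same lipid and activate Mertk, a receptor tyrosine kinase that triggers engulfment, and rats that lack Mertk lose their photoreceptors. Axl and Tyro3 are the other TAM receptors, and Axl is bound by Gas6 and not by protein S.

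The values below are log2 expression values as made by the RMA method, so a difference of 1 is a doubling, and a change is always the Mfrp rd6 mean minus the wild-type mean. A gene passed if its adjusted p was under 0.05 (limma, Benjamini-Hochberg adjustment over all 19938 genes). Of the 10 members, 0 passed, against 2.15% of all genes, so that none passing among 10 is close to that background. Adjusted p lay between 0.109 and 0.71 (limma). In simulated data the test missed most changes this small: it passed 4% of true changes of 0.25 and 48% of those of 0.5. The simulation changed 50 genes at each size and gave 108 calls, against 429 in these data. Its adjustment was thus stricter, and these shares may be too low for these data. At an unadjusted p under 0.05 there were 3 members, against 15.4% of all genes. These were Axl and Tyro3 above wild type (2 members, against 5.98% of all genes) and Itgav below it (1 member, against 9.37%). The same 3 were the members whose groups did not overlap, against 15.3% of all genes, with 2 higher in Mfrp rd6, against 5.52% of all genes, and 1 lower, against 9.82%. The 95% confidence intervals of all 10 changes lay within 1 log2 unit of 0, and the bound farthest from 0 was 0.63, for Pros1. The median change of the members was 0.14 and that of all genes -0.02, with 7 members above 0 and 3 below (8682 of all genes above 0 and 11256 below). Regardless of direction, the median size of the change was 0.18 for the members and 0.0867 for all genes. The 2 sets differ in brightness: 13406 of all 19938 genes had a mean of at least 6, while 1 member lay below 6. The sizes were not compared at equal brightness. The plot of the members by array shows every value behind these counts.

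**Figure D1:**
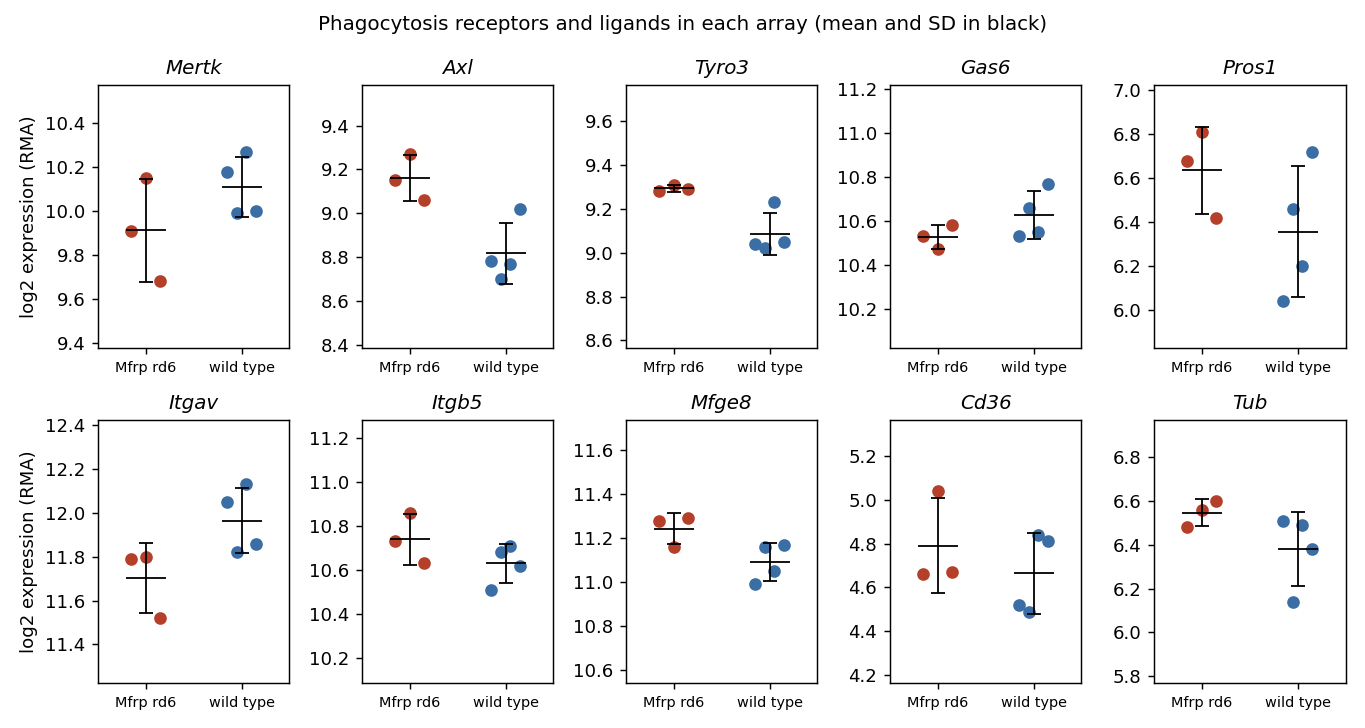
Log2 expression (RMA, vertical axis, each panel spanning the same 1.2 log2 units) of the 10 genes in the 3 Mfrp rd6 arrays (left, red) and the 4 wild-type arrays (right, blue); black lines are the mean and SD. The Axl and Tyro3 arrays of Mfrp rd6 all sit above those of wild type, the Itgav arrays all sit below, and in the other 7 panels the groups overlap.

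The 3 TAM receptors did not differ in 1 direction. The promoter windows of these receptors and of Itgav are given first, since these members carry the separations between the groups and the parallel spread of Mertk and Itgav described below. Each runs from 250 bases before to 50 bases after the start of the gene (RefSeq, GRCm38.p6), is written 5′ to 3′ on the strand of the gene, and has the GC box (GGGCGG on either strand) in capitals. The windows are chr2:128698665-128698964 on the plus strand for Mertk, chr7:25788684-25788983 on the minus strand for Axl, chr2:119799264-119799563 on the plus strand for Tyro3 and chr2:83724147-83724446 on the plus strand for Itgav.
Mertk: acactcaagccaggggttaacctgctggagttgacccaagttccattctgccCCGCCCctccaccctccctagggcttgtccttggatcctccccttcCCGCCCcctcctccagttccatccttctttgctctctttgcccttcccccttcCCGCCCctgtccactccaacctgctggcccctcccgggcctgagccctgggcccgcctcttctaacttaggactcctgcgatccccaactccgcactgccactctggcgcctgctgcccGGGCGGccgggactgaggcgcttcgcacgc
Axl: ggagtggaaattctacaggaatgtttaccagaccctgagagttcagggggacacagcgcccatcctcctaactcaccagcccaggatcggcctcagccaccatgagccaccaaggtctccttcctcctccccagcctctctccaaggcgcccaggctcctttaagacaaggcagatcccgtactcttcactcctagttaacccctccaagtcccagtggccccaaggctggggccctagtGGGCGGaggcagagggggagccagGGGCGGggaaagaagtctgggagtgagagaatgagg
Tyro3: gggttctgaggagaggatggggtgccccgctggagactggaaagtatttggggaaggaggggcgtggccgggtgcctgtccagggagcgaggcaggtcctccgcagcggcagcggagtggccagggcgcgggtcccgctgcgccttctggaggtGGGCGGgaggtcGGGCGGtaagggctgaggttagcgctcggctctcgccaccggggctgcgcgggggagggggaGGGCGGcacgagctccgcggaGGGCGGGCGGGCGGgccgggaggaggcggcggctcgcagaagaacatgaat
Itgav: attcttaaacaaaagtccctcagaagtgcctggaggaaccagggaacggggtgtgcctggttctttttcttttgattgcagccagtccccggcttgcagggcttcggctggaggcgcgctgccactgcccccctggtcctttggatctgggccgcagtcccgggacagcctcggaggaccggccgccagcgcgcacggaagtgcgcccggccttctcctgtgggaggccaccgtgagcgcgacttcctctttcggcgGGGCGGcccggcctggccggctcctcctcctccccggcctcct
The Mertk window holds 4 GC boxes, that of Axl 2, that of Tyro3 6, of which those around the gene start overlap each other, and that of Itgav 1. All 10 members have a window in the table, and all 10 hold a GC box, the letters bound by Sp1-type factors, against 35.7% of 32851 promoter windows of the same length. The members' windows are rich in G and C (43% to 73.7%, median 65.8%, against a median of 52.7% over all windows), and among the 11374 windows with at least 58% G and C the share with a GC box was 76.3%. None of the 10 windows holds TAATCC (the core of OTX2-type sites), CATGTG or CACGTG (E-boxes), or TGANTCA (the AP-1 site) on either strand, against 7.06%, 14.2%, 7.15% and 7.81% of all windows. These matches are descriptions of the letters in the windows.

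Mertk, the receptor on which engulfment of outer segments depends, read 9.91, 10.15 and 9.68 in the Mfrp rd6 arrays, against 10.18, 9.99, 10.27 and 10 in the wild-type arrays. Mfrp rd6 replicate 2 lay inside the wild-type range, and the other two lay below it. The change was -0.20 (95% confidence interval -0.46 to 0.07, limma adjusted p = 0.483), a level 0.873 times that of wild type, and the interval leaves room for a level between 0.727 and 1.05 times. The spread was wider in Mfrp rd6 (SD 0.24, n = 3) than in wild type (SD 0.14, n = 4). Without Mfrp rd6 replicate 3 the change of Mertk was -0.08, and without Mfrp rd6 replicate 2 it was -0.32, and neither passed.

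Axl, the TAM receptor that macrophages and endothelial cells also make and that responds to inflammation, read 9.15, 9.27 and 9.06 in Mfrp rd6, against 8.78, 8.70, 8.77 and 9.02 in wild type. All Mfrp rd6 arrays lay above all wild-type arrays, but wild-type replicate 4 came within 0.04 of the lowest of them. The change of 0.34 (95% confidence interval 0.14 to 0.55, 1.27-fold) was the largest of the 10 members and did not pass (limma adjusted p = 0.109, unadjusted p = 0.00434). It passed in 1 of 18 alternative settings, under the setting with robust moderation around a variance trend (adjusted p = 0.0463), and over the 18 settings its adjusted p was between 0.0463 and 0.764.

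Tyro3, the TAM receptor best known from the nervous system, read 9.28, 9.31 and 9.29 in Mfrp rd6, against 9.04, 9.02, 9.23 and 9.05 in wild type. The Mfrp rd6 arrays lay close together (SD 0.02, n = 3) and above all wild-type arrays, of which replicate 3 stood apart from the other three. The change was 0.21 (95% confidence interval 0.04 to 0.37, limma adjusted p = 0.209).

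Within each array the distance between Axl and Mertk differed with genotype. Axl minus Mertk was -0.76, -0.88 and -0.62 in Mfrp rd6, against -1.40, -1.29, -1.5 and -0.98 in wild type, with no overlap and a difference of 0.54 between the means. Tyro3 minus Mertk was -0.63, -0.84 and -0.39 in Mfrp rd6, against -1.14, -0.97, -1.04 and -0.95 in wild type, again with no overlap. Itgb5 minus Itgav was -1.06, -0.94 and -0.89 in Mfrp rd6, against -1.54, -1.14, -1.42 and -1.24 in wild type, also with no overlap. These pairs were chosen after their values were seen and were not tested, and such a distance shows only that the 2 probe sets changed unequally. Axl, Tyro3 and Itgav already did not overlap by themselves, and each pair joins changes of opposite sign, so the distances largely restate those values.

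The ligands of the TAM receptors did not pass. Gas6, a vitamin K-dependent protein that binds all TAM receptors, read 10.53, 10.47 and 10.58 in Mfrp rd6, against 10.53, 10.66, 10.55 and 10.77 in wild type. The groups overlapped, and the change was -0.10 (95% confidence interval -0.28 to 0.08, limma adjusted p = 0.614). Without wild-type replicate 4 the change of Gas6 was -0.05. Pros1, the other vitamin K-dependent ligand and also an anticoagulant of plasma, read 6.68, 6.81 and 6.42 in Mfrp rd6, against 6.04, 6.46, 6.20 and 6.72 in wild type. Pros1 had the widest wild-type spread of the members (SD 0.30, n = 4), and its change of 0.28 had the widest interval (-0.07 to 0.63, limma adjusted p = 0.444). Without wild-type replicate 1 the change of Pros1 was 0.18.

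The integrin chains differed in sign. Itgav, the α chain, read 11.79, 11.80 and 11.52 in Mfrp rd6, against 12.05, 11.82, 12.13 and 11.86 in wild type. The groups did not overlap, but the highest Mfrp rd6 array and the lowest wild-type array were 0.02 apart. The change was -0.26 (95% confidence interval -0.49 to -0.03, a level 0.834 times that of wild type), and it did not pass (limma adjusted p = 0.261). Without Mfrp rd6 replicate 3, the lowest array, the change of Itgav was -0.17. Itgb5, the β chain that pairs with it for outer segment binding, read 10.73, 10.86 and 10.63 in Mfrp rd6, against 10.51, 10.68, 10.71 and 10.62 in wild type. The groups overlapped, with a change of 0.11 (-0.07 to 0.29, limma adjusted p = 0.59), which was 0.05 without Mfrp rd6 replicate 2 and 0.07 without wild-type replicate 1. Mfge8, the ligand that bridges this integrin to phosphatidylserine, read 11.28, 11.16 and 11.29 in Mfrp rd6, against 10.99, 11.16, 11.05 and 11.17 in wild type. Mfrp rd6 replicate 2 shared the value of wild-type replicate 2, and the change was 0.15 (-0.02 to 0.32, limma adjusted p = 0.383).

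Cd36 and Tub overlapped between the groups. Cd36, a scavenger receptor for oxidised lipids that speeds uptake of outer segments and is abundant in adipocytes, muscle and capillary endothelium, read 4.66, 5.04 and 4.67 in Mfrp rd6, against 4.52, 4.49, 4.84 and 4.81 in wild type. These levels lay near the lower quartile of all probe sets on the arrays (4.90 to 5.02), where RMA compresses differences. The change was 0.13 (95% confidence interval -0.16 to 0.41, limma adjusted p = 0.71). It rested on single arrays: without Mfrp rd6 replicate 2 the change of Cd36 was 0.00, without wild-type replicate 1 it was 0.08, without wild-type replicate 2 it was 0.07, and without Mfrp rd6 replicate 1 it was 0.19. Tub, a membrane-associated protein whose loss in tubby mice causes retinal degeneration and which has been described as a ligand of Mertk, read 6.48, 6.56 and 6.6 in Mfrp rd6, against 6.51, 6.14, 6.49 and 6.38 in wild type. Its change was 0.17 (-0.05 to 0.38, limma adjusted p = 0.467), and the groups overlapped. Without wild-type replicate 2, the lowest array, the change of Tub was 0.09.

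Under the growth protocol, the fit without Mfrp rd6 replicate 1 compares mice of equal age. In that fit the change was 0.35 for Axl (95% confidence interval 0.10 to 0.60), 0.22 for Tyro3, -0.20 for Mertk and -0.30 for Itgav (-0.58 to -0.03). No member passed in it (limma, adjusted p = 0.219 for Axl).

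**Figure D2:**
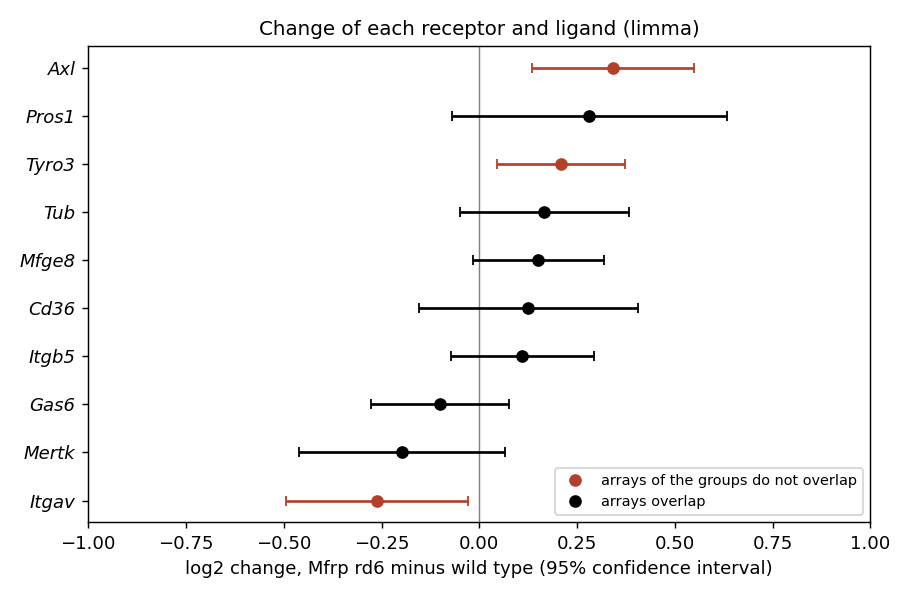
Log2 change (Mfrp rd6 minus wild type, horizontal axis) of the 10 genes with its 95% confidence interval from limma, ordered by size; red marks genes whose arrays do not overlap between genotypes. Changes run from -0.26 (Itgav) to 0.34 (Axl), and the intervals of Axl, Tyro3 and Itgav leave out 0 before adjustment.

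Within a genotype the members did not all vary in the same way. Each array was expressed as its deviation from the mean of its own genotype, and the 45 pairs of members were compared by the sign of that deviation, as a description without a test. The median pair deviated in the same direction in 4 of 7 arrays. In at least 6 of 7 arrays 6 pairs did so: Gas6 and Mfge8 in 7, and in 6 each Mertk with Itgav, Mertk with Tyro3, Tyro3 with Itgb5, Tyro3 with Cd36 and Axl with Cd36. In Mfrp rd6 replicate 1 the deviation of Gas6 was only 0.003. Mertk and Itgav deviated in the 4 wild-type arrays by nearly the same amounts (0.07, -0.12, 0.16 and -0.11 for Mertk; 0.09, -0.15, 0.17 and -0.11 for Itgav). Mertk deviated in the opposite direction to both Gas6 and Mfge8 in every array, though in Mfrp rd6 replicate 1 its deviation was only -0.003. The mean of 8 RPE markers, which moved by 0.07 at most, deviated in the same direction as Itgav in 7 of 7 arrays and as Mertk in 6 of 7, and as Gas6 and Mfge8 in 1 of 7 each. The skeletal muscle marker mean deviated in the same direction as Itgav and Tyro3 in 6 of 7 arrays each and as Mertk in 5 of 7. The microglia and macrophage marker mean did so with Cd36 in 7 of 7 arrays and with Axl and Tyro3 in 6 of 7 each, and the rod marker mean with Tyro3 in 6 of 7. In Mfrp rd6 the deviations of Tyro3 were only -0.013, 0.017 and -0.003. The Mfrp rd6 signs in every Tyro3 count therefore rest on values near 0. Deviations also sum to 0 within a genotype, so the 7 signs are not independent. All these genes come from the same arrays and share their normalization, and the part of the sample makeup in these deviations was not tested.

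**Figure D3:**
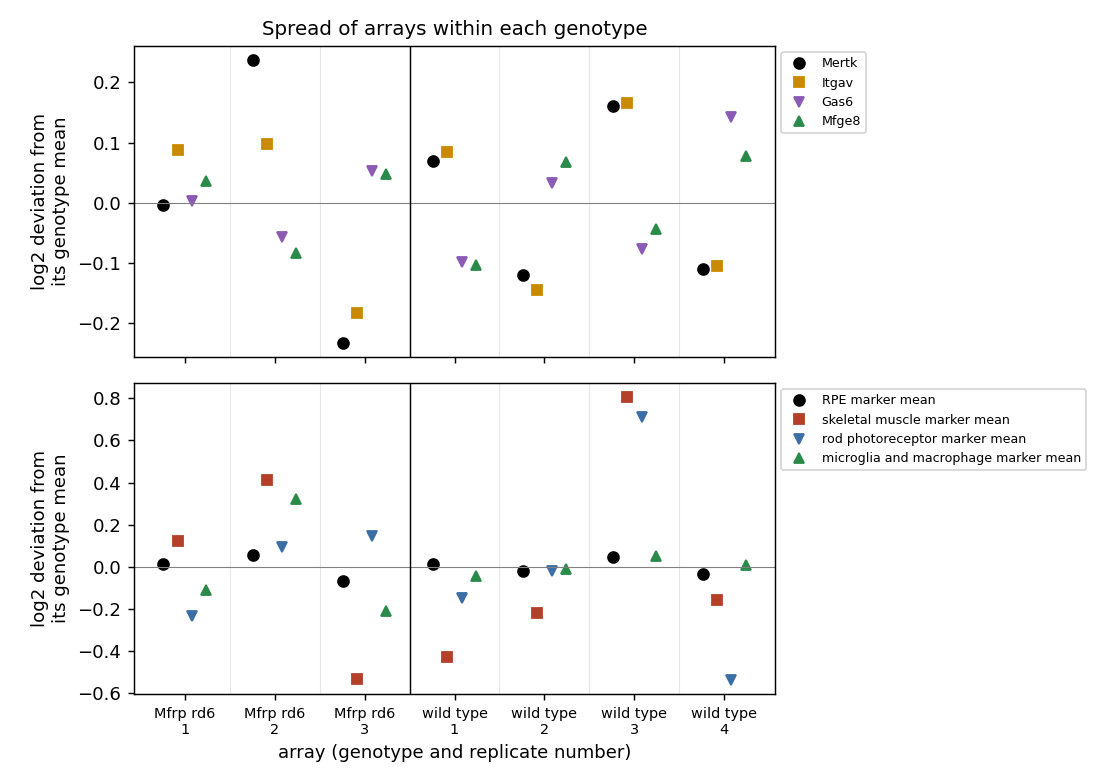
Deviation of each array from the mean of its genotype (vertical axis, log2 units; Mfrp rd6 arrays left of the line, wild-type arrays right of it), for 4 members (upper panel) and for 4 marker means (lower panel, wider axis). Mertk and Itgav lie on the same side of 0 in 6 of 7 arrays and Gas6 and Mfge8 on the same side in 7 of 7, while the skeletal muscle mean spans -0.54 to 0.81. In Mfrp rd6 replicate 1 Gas6 deviates by only 0.003 and Mertk by -0.003.

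Markers of other cell types were read on the same arrays, and some moved with genotype. Of all genes 1.34% rose and 0.813% fell by limma. At an unadjusted p under 0.05 (limma) there were 15.4% of all genes, and 15.3% did not overlap between the groups. Among 8 RPE markers Rgr, a retinal-binding opsin, and Rpe65, the isomerase of the visual cycle, were bright (Rgr 13.27 in Mfrp rd6 and 13.36 in wild type, Rpe65 12.64 in Mfrp rd6 and 12.87 in wild type), whereas Best1, an RPE chloride channel, was below the array medians (5.82 in Mfrp rd6 and 5.89 in wild type, medians 6.52 to 6.58). The mean of the 8 RPE markers was 11.69 to 11.82 in Mfrp rd6, against 11.84 to 11.92 in wild type, with no overlap. Of the 8, 7 lay below wild type and 1 fell, Lrat, the retinol acyltransferase of the visual cycle (-0.40, limma adjusted p = 0.0277). Rpe65, Best1 and the marker genes that passed were named after their values were seen. The mean of 15 microglia and macrophage markers, cells that also use Mertk, Axl, Gas6 and Mfge8, was 8.60 to 9.13 in Mfrp rd6, against 7.20 to 7.30 in wild type, and 11 of the 15 rose and 0 fell (limma). The mean of 11 endothelial markers was 7.40 to 7.79 in Mfrp rd6, against 6.91 to 7.37 in wild type, and 2 of 11 rose. All 11 lay above wild type, 8 of them at an unadjusted p under 0.05 and 5 with no overlap between the groups. The mean of 12 skeletal muscle markers was 8.00 to 8.95 in Mfrp rd6, against 6.71 to 7.95 in wild type, and 3 of 12 rose. All 12 muscle markers lay above wild type, and all 12 had an unadjusted p under 0.05. The mean of 10 rod markers was 6.86 to 7.24 in Mfrp rd6, against 7.05 to 8.30 in wild type, and 0 of 10 passed (3 at an unadjusted p under 0.05). Adipocyte markers, 5 measured, averaged 5.05 to 5.34 in Mfrp rd6, against 5.13 to 5.32 in wild type, with 0 passing by limma, also at an unadjusted p under 0.05. Of 6 fibroblast markers 1 fell, the matrix proteoglycan gene Dcn (-0.92, limma adjusted p = 0.014), and their mean was 6.81 to 7.04 in Mfrp rd6, against 7.16 to 7.34 in wild type. At an unadjusted p under 0.05 there were 4 lower fibroblast markers and 0 higher. Of 4 measured T cell markers 1 rose, Cd3e of the T cell receptor complex (0.43, limma adjusted p = 0.0193), and their mean was 6.11 to 6.32 in Mfrp rd6, against 5.82 to 6.01 in wild type. At an unadjusted p under 0.05 there were 2 higher T cell markers and 0 lower. Of 6 cone markers 1 fell, the phosphodiesterase gene Pde6c (-0.88, limma adjusted p = 0.0187), with an overlapping mean of 6.12 to 6.23 in Mfrp rd6, against 6.01 to 6.65 in wild type. At an unadjusted p under 0.05 there were 1 higher and 1 lower cone marker. The higher was Gnat2 (0.31, limma adjusted p = 0.179), with no overlap between the groups. The surface epithelium mean did not overlap either (11.12 to 11.26 in Mfrp rd6, against 11.29 to 11.51 in wild type), with 0 of 5 markers passing by limma and 1 at an unadjusted p under 0.05. Its brightest marker, the keratin gene Krt5, read 13.147 in Mfrp rd6 and 13.135 in wild type, above Rpe65. These samples thus also held bright keratin RNA, and the levels of the members cannot be assigned to the RPE alone. Of the Müller glia, platelet, melanocyte, and pericyte and smooth muscle markers 0 passed by limma, and at an unadjusted p under 0.05 there were 0 of 5, 0 of 4, 1 of 6 and 2 of 7 in that order. In bulk samples fewer cells of a type and less RNA per cell cannot be told apart. With this skeletal muscle mean in the fit, the change of Mertk was -0.57 (95% confidence interval -0.96 to -0.17, limma adjusted p = 0.409). That of Itgav was -0.56 (-0.93 to -0.19, limma adjusted p = 0.363). Those of Itgb5 (-0.11) and Cd36 (-0.25) changed sign, and no member passed. The muscle mean itself did not overlap between the genotypes, so this fit separates muscle from genotype poorly and its intervals were wide. The part of these cells in the members' values was not tested further.

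Among the other genes of the phagocytic pathway, 84 were listed in 8 groups by role and 80 were measured, and 2 rose (2.5%, against 1.34% of all genes) and 1 fell (1.25%, against 0.813%). The median change was -0.03, against -0.02 for all genes. At an unadjusted p under 0.05 (limma) there were 24 of the 80 (30%), 10 higher and 14 lower, against 15.4% of all genes. In the engulfment group, the signalling and motor proteins that rearrange actin around a bound particle, 1 of 24 measured genes rose and 1 fell. At an unadjusted p under 0.05 (limma) there were 2 higher, against 5.98% of all genes, and 7 lower, against 9.37%. The genotypes did not overlap for 2 higher genes, against 5.52% of all genes, and for 9 lower, against 9.82%. Vav1, a signalling protein of blood-derived cells, read 6.58, 6.99 and 6.28 in Mfrp rd6, against 5.66, 5.67, 5.79 and 5.64 in wild type. Vav1 rose by 0.93 (SE 0.14, limma adjusted p = 0.0107). Myh10, a heavy chain of non-muscle myosin II, the motor that is recruited to bound outer segments, read 7.36, 7.21 and 7.23 in Mfrp rd6, against 7.77, 7.99, 7.78 and 7.95 in wild type. Myh10 fell by 0.61 on the log2 scale (SE 0.08, limma adjusted p = 0.00574), with no overlap between the groups. Myo7a, an unconventional myosin that carries ingested phagosomes and melanosomes, differed by 0.05 (95% confidence interval -0.22 to 0.32), and the kinase gene Ptk2 was not analysed here.

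In the group of other clearance receptors, 1 of 17 rose. At an unadjusted p under 0.05 (limma) there were 3 higher and 2 lower. Cd68, a lysosomal glycoprotein of macrophages, read 10.39, 10.84 and 10.30 in Mfrp rd6, against 9.11, 9.35, 9.17 and 9.30 in wild type. Cd68 rose by 1.28 (SE 0.13, limma adjusted p = 0.000844), and it is also 1 of the 15 microglia and macrophage markers above. The mean of those markers was 1.56 higher in the same Mfrp rd6 arrays, and its part in the values of Cd68 and Vav1 was not tested. With the skeletal muscle mean in the fit Vav1 (0.49, limma adjusted p = 0.604), Myh10 (-0.54, limma adjusted p = 0.363) and Cd68 (1.08, limma adjusted p = 0.191) did not pass. The 95% confidence interval of Myh10 was -0.91 to -0.18 in that fit, against -0.79 to -0.42 without the muscle mean. Muscle and genotype are separated poorly there, so the lost calls do not tell which of them the changes follow.

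The other 6 groups held no gene that passed by limma, and 10 of their 39 measured genes had an unadjusted p under 0.05, against 3061 of all 19938 genes (15.4%). Of the integrin partners of αv and ligands with an RGD motif, 7 measured, the brightest were Itgb8, the chain of a TGF-beta-activating integrin (-0.01, 95% confidence interval -0.21 to 0.19), and Itgb1 (-0.09, -0.24 to 0.06). All 7 changes were below 0, as were 11256 of all 19938 genes. Edil3, a homologue of Mfge8 that also bridges αv integrins to phosphatidylserine, was the farthest from 0 at -0.46 (limma adjusted p = 0.0922) and was named after its value was seen. Its means, 4.58 in Mfrp rd6 and 5.04 in wild type, lay near the lower quartile of all probe sets (4.90 to 5.02), where RMA compresses differences. Among 5 measured genes for tubby-like proteins and galectin-3, Tulp4 differed by 0.00 and Lgals3, another described ligand of Mertk, by -0.03 (95% confidence interval -0.19 to 0.13).

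Of 6 genes for shedding and feedback of TAM receptors, Adam17, the protease that cuts Mertk from the cell surface, read 9.50, 9.54 and 9.54 in Mfrp rd6, against 9.67, 9.82, 9.64 and 9.71 in wild type. The groups did not overlap, and the change of -0.18 did not pass (limma adjusted p = 0.24). Adam10 differed by -0.12 and the actin-binding protein Twf1 by -0.015. At an unadjusted p under 0.05 (limma) there were 2 higher and 1 lower of these 6 genes. Of 3 genes for the vitamin K-dependent carboxylation that Gas6 and protein S need, Vkorc1 differed by -0.04 and Vkorc1l1 by -0.04. The third, Ggcx, named after its value was seen, differed by -0.24 (95% confidence interval -0.47 to -0.02, limma adjusted p = 0.281). Of 7 measured genes for exposure of phosphatidylserine and its counter-signal, the flippase gene Atp11a differed by 0.00 and its partner Tmem30a by -0.12. At an unadjusted p under 0.05 (limma) there were 1 higher and 1 lower of the 7. Sirpa, the receptor that restrains engulfment when it meets Cd47 and that was named after its value was seen, was 0.35 above wild type (limma adjusted p = 0.0744). Of 11 genes for phagosome maturation, the protease Ctsd differed by 0.12 and the lysosomal membrane protein Lamp2 by -0.05. Cyba of the same list, named after its value was seen, was 0.40 above wild type (limma adjusted p = 0.0593). Its groups did not overlap.

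**Figure D4:**
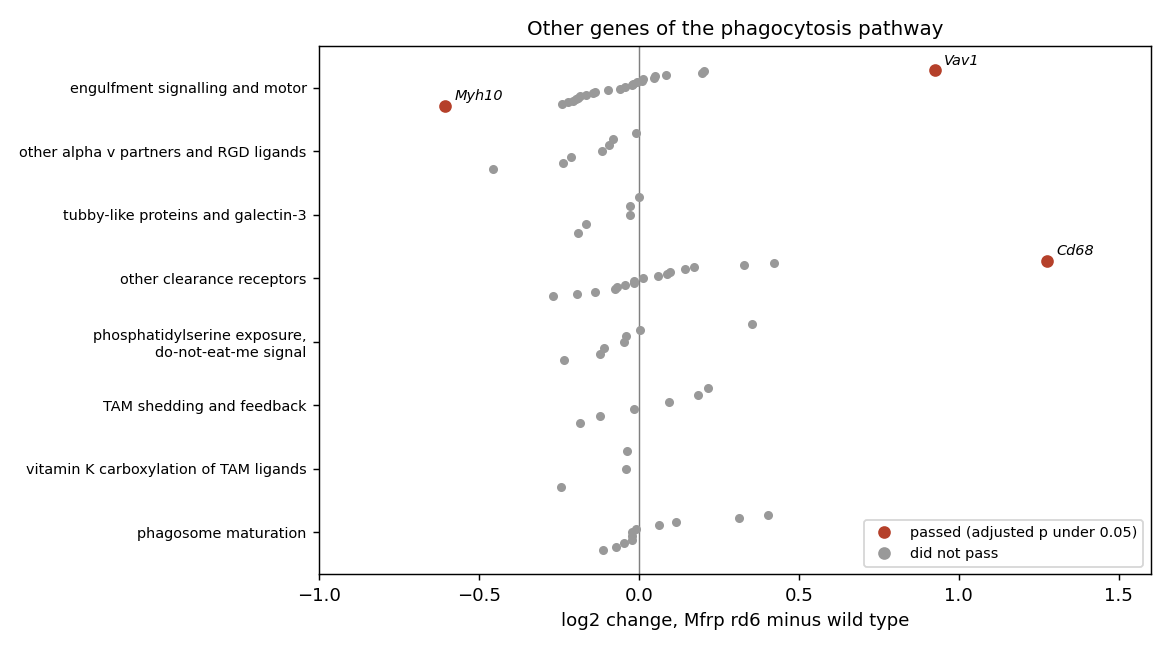
Log2 change (Mfrp rd6 minus wild type, horizontal axis) of the 80 measured genes of the pathway beside the 10 members, 1 point per gene, in 8 groups by role; red points passed at an adjusted p under 0.05. Vav1 (0.93) and Cd68 (1.28) lie to the right and Myh10 (-0.61) to the left, and the other 77 genes lie between -0.46 and 0.42.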

How the data were processed

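Per the submitters' processing notes, the authors made the deposited log2 values with Affymetrix Expression Console and RMA, which removes background, brings all arrays to 1 distribution and gives each probe set 1 value. No version is named in the labels. The table held 35556 probe sets, of which 21789 carried 1 gene symbol in the platform annotation, which can be old. Where a gene had several, the probe set with the highest mean was used, which left 19938 genes. Array medians were 6.52 to 6.58, and the number of arrays limits the precision.

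Genes were fitted as Mfrp rd6 minus wild type with limma (version 3.58.1, R 4.3.3) with no covariate and no filter. The members, the lists and the alternatives were chosen with earlier results of these data known. Named were the 10 members, from each pathway list the genes that passed or, with none, the 2 brightest, and Adam17, Ptk2 and Myo7a. Other genes were named after their values were seen. The fit was tested on simulated data with the gene means, spreads and group sizes of these arrays. It recovered 4% of true changes of 0.25, 48% of 0.5, 50% of -0.5 and 96% of 1. Of its 108 calls 9 were false. In the simulation most changes as small as those of the members thus did not pass. It held 50 changed genes of each size and gave fewer calls than the 429 of these data. Its adjustment was therefore stricter, and the recovery in these data may be higher. Replicate numbers gave no pairing (correlations of deviations -0.30 to 0.04 over 3 pairs). Promoter windows are from RefSeq (GRCm38.p6). Alternatives changed the normalization, dim filter, moderation, array weights, probe sets, covariates, block and arrays used.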

Additional observations from a re-analysis of the deposited data

Results flagged for a closer look

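In the wild-type group, Tyro3 stood out in replicate 3, which read 9.23 where the other three arrays read 9.02 to 9.05. The gap to the nearest array was 0.857 of the group's range, above Dixon's critical value of 0.829 for 4 arrays. Chance flags about 1 in 20 groups, and 27 genes were screened in the wild-type group. The same array had the highest skeletal muscle (7.95) and rod (8.30) marker means of the wild-type arrays, and their part in the Tyro3 value was not tested. Without it the Tyro3 change was 0.26 (adjusted p = 0.135).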

How the results depend on the processing

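In 17 of 18 alternatives 0 members passed. The exception was the variance trend with robust moderation, with 1 member higher (Axl, adjusted p = 0.0463). Of 179 alternative values of the members, 2 reversed, both with the skeletal muscle mean as covariate (Itgb5 -0.11, Cd36 -0.25), and 8 members kept their direction in all alternatives (a Gas6 change of 0.00 under that covariate counted as kept). The dim filter removed Cd36.

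Of the other pathway genes, 4 were higher, against 2 as reported, with quantile normalization, with a minimum mean of 6 and with the variance trend, Cyba and Sirpa being added each time. With p adjusted over all probe sets 1 was higher, since Vav1 did not pass (adjusted p = 0.0583), and with array weights 3 were higher, Cyba (0.45, adjusted p = 0.0198) being added, and 2 lower, Edil3 (-0.58) being added. With the skeletal muscle mean as covariate 0 were higher and 0 lower. Each fit that left out 1 array gave 0 and 0 members and 2 and 1 other pathway genes, as did the fit that dropped wild-type replicate 3 together with Mfrp rd6 replicate 2.

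Some changes near 0 changed sign. With quantile normalization these were Tulp4 (0.0261) and Twf1 (0.0132). With median centring it was Atp11a (-0.0133). With array weights they were Itgb8 (0.0431) and Tulp4 (0.0074), with the probe set mean Tulp4 (0.0279), and with the rod mean Itgb8 (0.0303) and Tulp4 (0.045). With the skeletal muscle mean they were Atp11a (-0.19), Ctsd (-0.0352) and Myo7a (-0.33). With the replicate number as a block, which changed no call on the members or the other pathway genes, Atp11a was -0.0067. Leaving out 1 array gave ranges of -0.0575 to 0.0775 for Itgb8, -0.0425 to 0.03 for Tulp4, -0.0375 to 0.0475 for Atp11a, -0.095 to 0.02 for Vkorc1 and -0.0267 to 0.133 for Myo7a. Over all genes 429 passed, against 50 to 718 in the alternatives (50 with the skeletal muscle covariate). Causes of these shifts were not tested. RMA compresses low signals, which limits what the changes of Cd36 and Edil3 can show, while the widest interval of the members was that of Pros1.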
